A study of Mus musculus with 4 samples.

Results

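Ntm, Npas3, Auts2, Gse1, Asic2 and Dab1 are 6 genes with long spans that gathered many SOX2 binding regions in mouse cortex. They are 6 of the 21627 protein-coding genes on the autosomes and X, and 6 of the 556 that span 300 kb or more. They were chosen by their number of SOX2 peaks in these same libraries, so every count given for them describes the choice and none is a test. Cortex was taken from wild-type C57BL/6 males aged 2 months, and the libraries comprised 3 SOX2 immunoprecipitations (IP libraries 1, 2 and 3) and 1 input of sheared chromatin. The series title concerns deletion of SOX2 in astrocytes after brain injury, but no deletion and no injury is named in the labels of these libraries. A further label gives SOX2 as a transduced factor in all 4, the input included, which does not match wild-type tissue. Nothing in the labels ties each IP library to its own animal, so the SDs below may measure technical spread alone. Whole cortex mixes neurons and glia, and the cells that carried each region cannot be told apart.

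SOX2 is a transcription factor of the HMG-box family that keeps neural stem cells undifferentiated and remains expressed in astrocytes of the adult brain. Chromatin immunoprecipitation followed by sequencing (ChIP-seq) maps where it sits: DNA bound by the antibody's target is enriched, and reads pile up into peaks over the input. The 6 genes encode proteins of different kinds. Ntm encodes neurotrimin, a cell adhesion protein of the IgLON family anchored in the neuronal membrane. Asic2 encodes a subunit of proton-gated ion channels. Dab1 encodes the adaptor that carries the Reelin signal inside migrating neurons. Npas3 encodes a brain transcription factor of the bHLH-PAS family, Auts2 a nuclear protein that joins a Polycomb complex, and Gse1 a protein found, in human cells, with the histone demethylase LSD1 and histone deacetylases. Long introns can hold many regulatory elements, and an element inside a gene need not act on that gene, which peak data alone do not show.

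The IP libraries held 36330529, 32492927 and 41875666 tags (aligned reads) and 17730, 17628 and 15891 peaks. IP library 3 was the deepest and had the fewest peaks, with 1.06% of its tags in peaks against 1.36% and 1.35% in IP libraries 1 and 2. Strength is the authors' normalized tag value, a peak's tags scaled to a library of 10000000, so that 1 tag was worth 0.275, 0.308 and 0.239 normalized tags. Peaks of the 3 libraries that overlapped by 1 bp or more were joined into regions, and a region with peaks of all 3 libraries is called reproducible. A region was given to a gene when its centre lay within the span or within 50 kb of it, a stretch called the window below. As a view of the tissue, 9 of 10 astrocyte marker genes had a reproducible region in their window, against 5 of 10 neuron markers, 5 of 10 oligodendrocyte markers, 4 of 10 microglia markers, 5 of 10 hepatocyte genes and 46.6% of all protein-coding genes.

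Together the 6 genes held 160 regions, of which 73 were reproducible, 30 had peaks in 2 libraries and 57 in 1. All 6 held a reproducible region, as did 72.3% of all genes of 300 kb or more, and all 6 held at least 10, as did 2.70% of those long genes. Both shares are background for a count that the choice of genes fixed. Ntm and Gse1 had 15 reproducible regions each, Npas3 12, Auts2 11, and Asic2 and Dab1 10 each. The other 550 long genes had a median of 1, and 154 of them had 0. Of the 73 regions, 68 lay inside the gene span itself, and the 5 in flanks belonged to Gse1 (4) and Asic2 (1).

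Before any joining, single libraries had between 12 and 27 peaks at each gene. Ntm had 22 peaks in IP library 1, 27 in IP library 2 and 19 in IP library 3, or 22.7 ± 4.04 on average (SD over 3 libraries, here and for the next genes). Gse1 had 24, 21 and 21, or 22.0 ± 1.73. Auts2 had 25, 19 and 19, or 21.0 ± 3.46, close to Ntm and Gse1, although fewer of its regions were reproducible. Npas3 had 15, 18 and 19, or 17.3 ± 2.08, and Dab1 had 18, 16 and 15, or 16.3 ± 1.53. Asic2 had the lowest mean, with 13, 13 and 12 peaks, or 12.7 ± 0.577. The ranges of Ntm, Gse1 and Auts2 overlapped one another, as did those of Npas3 and Dab1, while Asic2 lay below the other 5 genes in every library.

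The genes differed in how much of this recurred. In Asic2, 10 of 15 regions were reproducible (66.7%), the highest share of the 6. Gse1 (15 of 31, 48.4%), Ntm (15 of 32, 46.9%), Npas3 (12 of 26, 46.2%) and Dab1 (10 of 24, 41.7%) followed, and Auts2 had the lowest share, 11 of 32 or 34.4%. Over the 6 genes the share was 45.6%, against 31.8% of the 3713 regions at other long genes and 34.5% of all 27080. The choice of the 6 genes by their many peaks bears on this share, which was not tested. Of the 30 regions with peaks in 2 libraries, IP library 3 was the one without a peak in 17 (56.7%), against 44.7% over the genome.

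**Figure D1:**
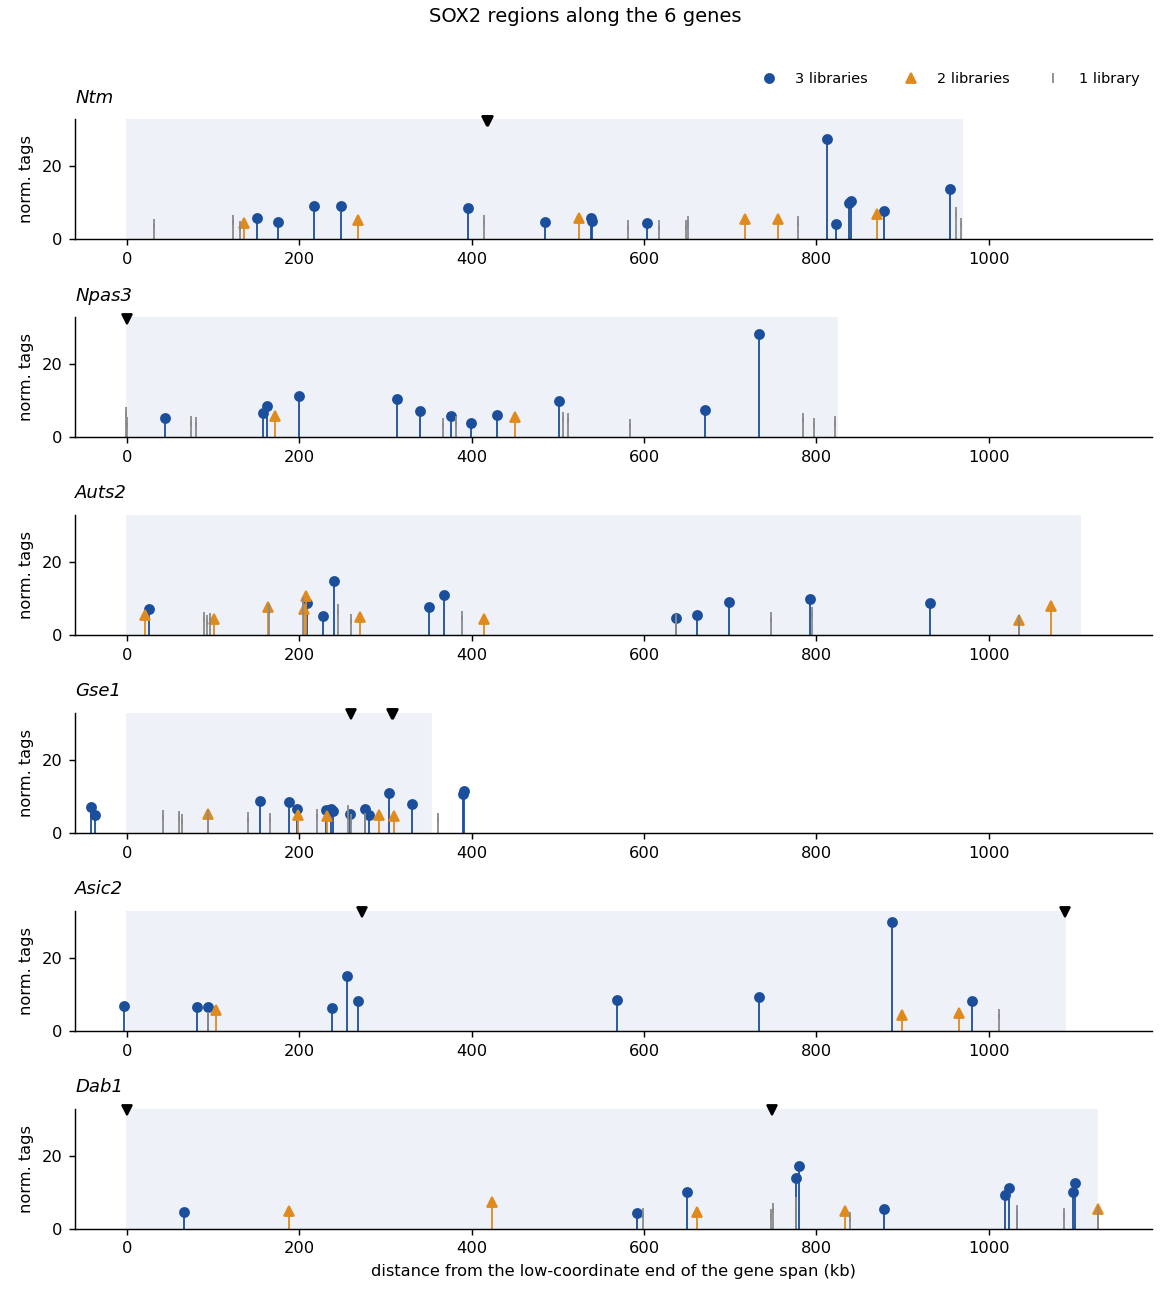
SOX2 regions along the 6 genes, with the distance from the low-coordinate end of each span in kb on the horizontal axis and the mean normalized tags over the libraries with a peak as height; symbols mark regions with peaks in 3, 2 or 1 libraries, shading the gene span and black triangles the listed transcription starts. Tall regions stand alone in Asic2 (29.9), Npas3 (28.2) and Ntm (27.6), whereas the regions of Gse1 stay at or below 11.5, and Dab1 has a stretch of 526 kb without a reproducible region.

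Set against the length of the window, Gse1 stood far above the other 5 genes. It had 3.31 reproducible regions per 100 kb, rank 2 of the 556 long genes, or 1 region every 30.2 kb. Ntm had 1.40 per 100 kb (rank 15) and Npas3 1.30 (rank 21). Auts2 had 0.912 (rank 59), Asic2 0.842 (rank 69) and Dab1 0.816 (rank 74), with 1 region every 110 to 123 kb. The median of the 6 was 1.11 per 100 kb, against 0.223 at the other 550 long genes, whose quartiles were 0 and 0.503. Without IP library 2 the rank of Ntm was 41 and without IP library 1 it was 26. The rank of Npas3 was 32 without IP library 2 and 41 without IP library 3, and that of Auts2 was 30 without IP library 2.

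Span and density were weakly related among the long genes. Over all 556, the Spearman correlation of span with regions per 100 kb was -0.116 and with the number of regions 0.136, given as a description of genes that are not independent replicates. Ntm, Npas3, Auts2, Asic2 and Dab1 span 824 to 1125 kb, and Gse1 spans 353 kb. Among the 98 genes of 800 kb or more, a limit set after the data were seen, these 5 ranked 1 (Ntm), 2 (Npas3), 4 (Auts2), 5 (Asic2) and 7 (Dab1) by density. The other 93 genes of that length had a median of 0.169 per 100 kb and a highest value of 0.940.

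**Figure D2:**
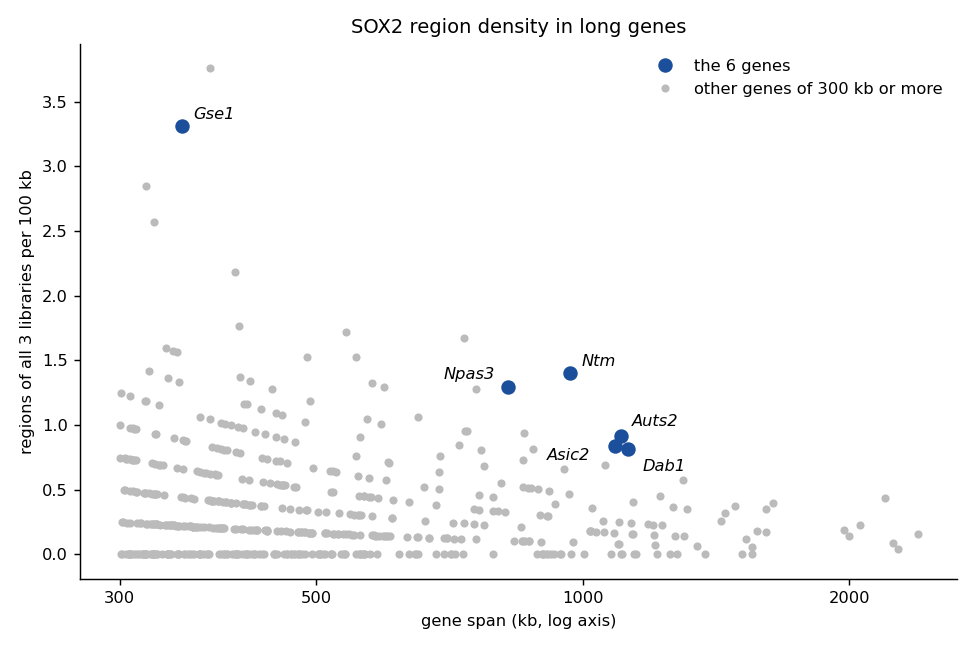
Reproducible SOX2 regions per 100 kb of window against gene span in kb (log axis), with 1 point per gene, blue for the 6 genes and grey for the other 550 long genes. Gse1 lies at 3.31 among the shorter genes, and the other 5 lie between 0.816 and 1.40 among genes of 824 kb or more, where most grey points are lower.

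The long gene closest in span to each of the 6 shows how far apart genes of like length lay. Ntm had 15 reproducible regions and Epha6, which encodes an ephrin receptor, had 0, with 0, 0 and 1 peaks in IP libraries 1, 2 and 3. Auts2 had 11, against 0 at Frmpd4 on the X chromosome, where no library had a peak. Npas3 had 12 and Cacna2d3, a calcium channel subunit gene, 3. Gse1 had 15 and Vwa8 2. Asic2 had 10 and Nrg1, which encodes a growth factor for ERBB receptors, 2. Dab1 had 10 and Opcml 3. Opcml and Ntm are neighbours on chromosome 9, 69.3 kb apart, and both encode IgLON proteins; Opcml held 3 reproducible regions beside the 15 of Ntm.

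**Figure D3:**
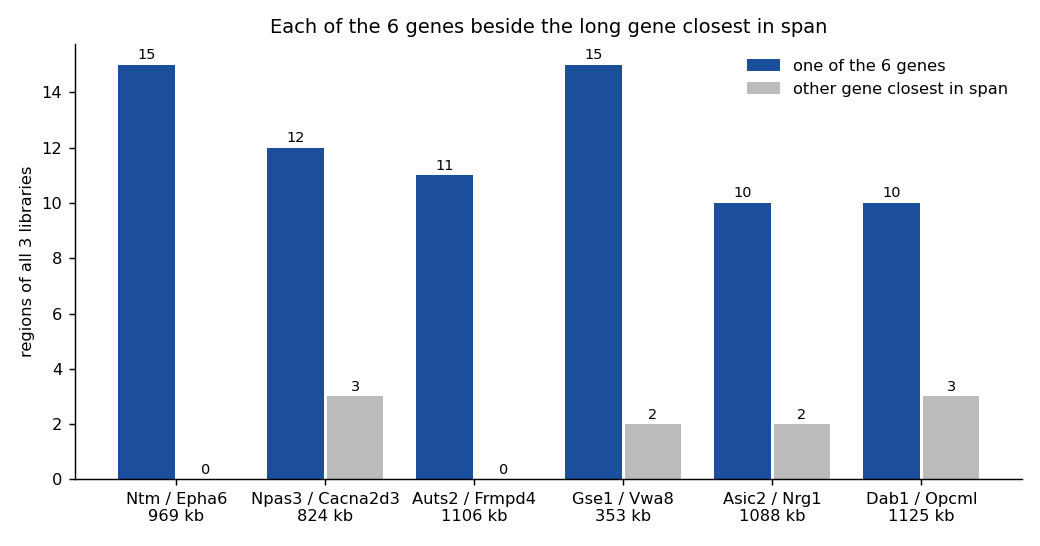
Reproducible SOX2 regions at each of the 6 genes (left of each pair) and at the other long gene closest to it in span (right of each pair). The 6 genes hold 10 to 15 regions and their length neighbours 0 to 3.

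Other long genes with at least 10 reproducible regions numbered 9. They were Msi2 (18 regions, 3.76 per 100 kb), Rora (14, 1.68), Prdm16 (12, 2.85), Hivep3 (11, 2.18), Nfia (11, 1.72), Ntrk2 (11, 2.57), Zbtb20 (11, 1.28), Kirrel3 (10, 1.53) and Lsamp (10, 0.435). Msi2 encodes an RNA-binding protein of neural precursors, and Rora, Prdm16, Nfia and Zbtb20 encode transcription factors. Just under 10, with 9 regions each, were Tnik, Dennd1a, Ank2, Frmd4a and Trpm3. Asic2 and Dab1, with 10, were thus 1 region above that group.

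Strength did not set the 73 regions apart from the rest. Their median was 7.98 normalized tags, against 7.74 at other long genes (1182 regions) and 7.63 over all 9333 reproducible regions. At least 10 tags were found in 19 of the 73 (26.0%), against 28.2% at other long genes and 28.8% of all. At least 20 tags were found in 3 (4.11%), against 4.31% and 3.98%. The medians of the fold over input (15.0, against 15.3 and 15.3) and of length (200 bp, against 204 and 202 bp) were also close. The same held for the focus ratio, the authors' measure of how sharply tags centre in a peak (0.744, against 0.736 and 0.742). These values were not tested, since they come from the contrast that chose the genes.

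IP library 3 gave the lowest value in 47 of the 73 regions (64.4%), against 60.1% over the genome. The medians of the 73 regions were 8.26, 8.31 and 6.45 normalized tags in IP libraries 1, 2 and 3, against 8.26, 8.00 and 6.93 for all reproducible regions. The part of that library's lower yield in these values was not tested. Between libraries the median coefficient of variation of a region was 18.7%, against 17.3% over the genome. In 20 of the 73 (27.4%), the input had no more than the floor of 0.5 tags in at least 1 library's table, against 20.2% over the genome, so the fold of such a region rests on the floor. Input tags are on another scale than normalized tags, so a fold is not the quotient of the values as printed.

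**Figure D4:**
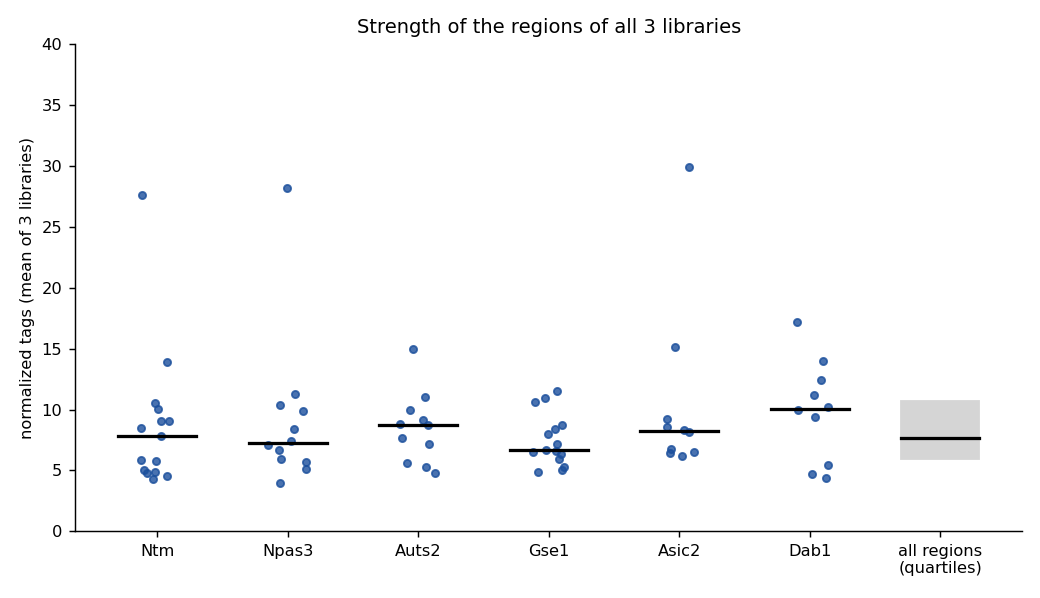
Normalized tags, averaged over the 3 libraries, of each reproducible region of the 6 genes (points, with a line at each gene's median), beside the quartiles (box) and median (line) of all 9333 reproducible regions. The medians run between 6.67 (Gse1) and 10.1 (Dab1), against 7.63 for all regions, and 1 region each in Ntm, Npas3 and Asic2 is above 20.

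Close neighbours among the reproducible regions were found in 4 of the 6 genes. Of the 73, 20 (27.4%) had another reproducible region within 5 kb, a distance set after the positions were seen, against 7.53% at other long genes and 11.6% over the genome. The median distance to the nearest other reproducible region was 23.5 kb, against 53.4 kb and 41.6 kb. By gene it was 4.31 kb in Dab1, 4.89 kb in Gse1, 23.8 kb in Ntm, 24.0 kb in Auts2, 28.0 kb in Npas3 and 50.6 kb in Asic2, the last above the median of all regions. Genes chosen for many regions have short distances in part by that choice. The 20 formed 10 pairs and belonged to Gse1 (8 regions), Dab1 (6), Ntm (4) and Npas3 (2), while Auts2 and Asic2 had none. The 8 of Gse1 include the 4 that lay in its flanks, outside the span.

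In the accounts of single genes that follow, strengths and ranks are those of reproducible regions. Ntm, on chromosome 9 at 28994749-29963269 (mm10), carried 1 that exceeded all its others. At chr9:29806926-29807089, inside the gene, normalized tags were 24.2, 29.5 and 29.1 in IP libraries 1, 2 and 3 (27.6 ± 2.95, SD, n = 3), 26.6-, 48.7- and 32.0-fold over the input. It ranked 80 among all 9333 reproducible regions and was 1.99 times as strong as the next in the gene. That next region, chr9:29949230-29949426, had 12.9, 16.3 and 12.4 (13.9 ± 2.12), lay 13.9 kb from the high-coordinate end, and its input was at the floor in all 3 tables. A region at chr9:29834930-29835127 followed with 10.7, 13.2 and 7.64 (10.5 ± 2.78). The strongest region was above every other Ntm region in each library. Of the 15 reproducible regions, 10 lay above the middle of the span by coordinate and 5 below it, and 209 kb was the longest stretch without one.

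Asic2, on chromosome 11 at 80880163-81968396, held the strongest region of all 6 genes. At chr11:81767799-81767965 normalized tags were 35.0, 25.2 and 29.4 (29.9 ± 4.92), 230-, 83.1- and 96.8-fold over an input of 0.5 (the floor), 1 and 1 tags. It ranked 51 of 9333 and took 28.4% of the gene's summed tags, the largest such share of the 6 genes. The second, chr11:81135243-81135477, had 19.0, 13.5 and 12.9 (15.1 ± 3.36), and the third, chr11:81613067-81613244, had 9.36, 8.93 and 9.31 (9.20 ± 0.235). The ranges of these 3 over the libraries did not overlap. Reproducible regions had a median spacing of 118 kb. The 1 in the flank, at chr11:80877298-80877493, lay 2.77 kb outside the low-coordinate end of Asic2. Its distance to Spaca3, the nearest other coding gene, was 9.58 kb.

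Dab1, on chromosome 4 at 103619500-104744844, had a lone reproducible region 65.9 kb from its low-coordinate end and then none in all 3 libraries for 526 kb, 46.8% of the span. The other 9 reproducible regions lay beyond that gap, above the middle of the span. The strongest, chr4:104399417-104399606, was the steadiest of the regions named here, with 17.1, 17.2 and 17.2 normalized tags (17.2 ± 0.0577), 112-, 114- and 113-fold over an input at the floor. A region 3.78 kb away, chr4:104395639-104395834, had 16.5, 13.8 and 11.7 (14.0 ± 2.41). The third, chr4:104719553-104719737, had 11.8, 13.8 and 11.7 (12.4 ± 1.18) and was paired with another 2.90 kb away. With a median of 10.1 normalized tags, Dab1 had the highest median of the 6 genes, although its highest region was weaker than those of Asic2, Npas3 and Ntm.

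Npas3, on chromosome 12 at 53248026-54072173, also had a single region well above the rest. At chr12:53981680-53981874, 89.0% of the way along the span, normalized tags were 26.7, 29.9 and 27.9 (28.2 ± 1.62), 44.0-, 49.2- and 46.0-fold over an input of 2 tags. It was 2.50 times as strong as the next, the widest such step of the 6 genes. That next region, chr12:53448134-53448372, had 12.4, 14.2 and 7.16 (11.3 ± 3.66), and chr12:53561853-53562085 had 12.4, 12.0 and 6.69 (10.4 ± 3.19). In both, IP library 3 was the lowest by a wide margin, whereas in the strongest it was not. When only peaks of at least 8-fold over the input were kept, Npas3 had 2 reproducible regions and ranked 194.

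Auts2, on chromosome 5 at 131437333-132543220, had no reproducible region of 20 tags or more. Its strongest, chr5:131677655-131677841, had 14.3, 15.7 and 14.8 normalized tags (14.9 ± 0.709), 94.3-, 103- and 97.5-fold over an input at the floor, and ranked 953 of 9333. The next were chr5:131805464-131805636 with 11.8, 11.4 and 9.79 (11.0 ± 1.06) and chr5:132229857-132230040 with 11.6, 9.85 and 8.36 (9.94 ± 1.62). The strongest was above both in every library, by 1.36 times over the next in the means. Of the 11 reproducible regions, 6 lay below the middle of the span and 5 above it, with a longest gap of 269 kb against a median spacing of 65.7 kb, and no pair lay within 5 kb. With peaks in at least 2 libraries required, Auts2 had 20 regions in place of 11.

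Gse1, on chromosome 8 at 120228501-120581383, held 15 reproducible regions of 4.85 to 11.5 normalized tags, the strongest 1.05 times as strong as the next. Its median was 6.67 normalized tags, the lowest of the 6 genes, and its strongest region took 10.2% of the summed tags, the smallest such share. That region, chr8:120619610-120619814, had 12.9, 12.6 and 9.07 (11.5 ± 2.13) and lay outside Gse1, 38.3 kb past its high-coordinate end, within the spans of 1190005I06Rik and Gm27021. A region 1.36 kb from it, chr8:120618254-120618447, had 12.7, 8.93 and 10.3 (10.6 ± 1.91) and lay in the same 2 genes. Between them in strength and inside Gse1 was chr8:120532858-120533063, with 8.81, 12.9 and 11.2 (11.0 ± 2.05) and an input at the floor in all 3 tables. These 3 regions overlapped in range. Of the 11 reproducible regions inside the span, 10 lay above its middle, and the first 154 kb held regions of 1 or 2 libraries only. The other 2 reproducible regions in the flank lay 9.02 and 13.8 kb from Cibar2, so 4 of the 15 have another coding gene closer or over them.

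**Figure D5:**
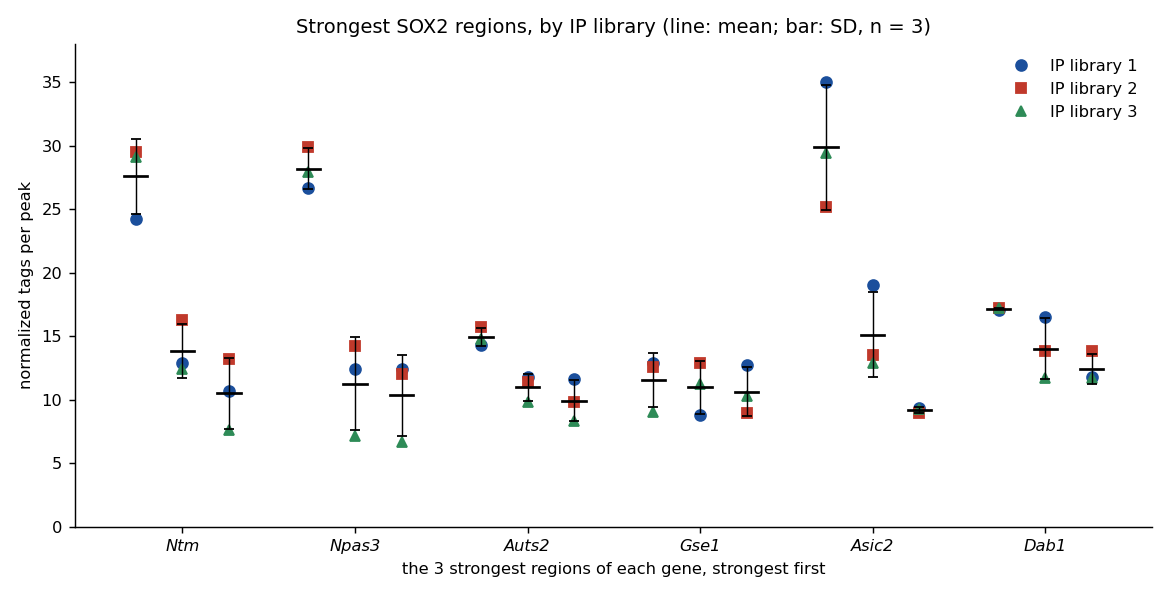
Normalized tags of the 3 strongest reproducible regions of each of the 6 genes, with a point per IP library, a line at the mean and bars for the SD (n = 3). The leading regions of Asic2 (29.9), Npas3 (28.2) and Ntm (27.6) stand apart from the second of the same gene, and the 3 of Gse1 (11.5, 11.0 and 10.6) overlap.

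Positions relative to the genes' own transcription starts were read from listed starts. RefSeq promoter windows, 250 bases before to 50 after a start on GRCm38.p6 (the assembly behind mm10), were listed for 10 starts: 3 of Gse1, 2 each of Dab1, Ntm and Asic2, and 1 of Npas3. Auts2 is not in that table. A reproducible region overlapped 0 of the 10, against 5.66% of all 32851 windows. A peak of any library overlapped 1 of the 10, against 14.9% of all. With 10 windows, 0 and 1 are near these background shares. That window is the start of Npas3, where IP library 3 alone had a peak, chr12:53248210-53248368, of 4.06 normalized tags. Some peaks of 1 library lay just outside the windows. IP library 2 had one 0.83 kb upstream of the Npas3 start, with 6.77 normalized tags. IP library 3 had one 0.587 kb upstream of a Dab1 start and one 0.41 kb upstream of a Gse1 start. Closest of the reproducible regions was one of Gse1, 1.75 kb upstream of a listed start, with 6.61, 4.62 and 4.54 normalized tags (5.26 ± 1.17). The strongest region inside Gse1 lay 2.90 kb upstream of another listed start. In Asic2 a region lay 4.34 kb downstream of a listed start, with 9.08, 10.8 and 5.01 (8.30 ± 2.97). In Ntm, Dab1 and Npas3 the nearest lay 21.7, 28.2 and 44.3 kb from a listed start. The listed starts of Ntm and Gse1 all lie well inside the spans, and none is listed at the outer end where transcription would begin. For Ntm, on the minus strand, that is the high-coordinate end, 13.9 kb from its second strongest region.

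Start windows of any gene, own starts included, were overlapped by 2 reproducible regions, or 2.74% of the 73. The shares were 5.25% of regions at other long genes and 16.0% over the genome. The 2 regions both lay in Asic2 and met the start windows of the non-coding genes Gm51910 and 5530401A14Rik. These are transcribed on the plus strand, whereas Asic2 lies on the minus strand. In 5530401A14Rik only the last 24 bases of the window, past the start itself, were met. The Gm51910 window meets the second strongest region of Asic2. The 5530401A14Rik window meets chr11:81860703-81860862, which had 9.08, 8.93 and 6.45 normalized tags. In the flank of Gse1, a peak of IP library 1 alone (chr8:120589024-120589176, 4.13 normalized tags) overlapped the start window of Gm10614, which is not printed. The windows printed here are those under a reproducible region and the 1 own start under any peak, each on the plus strand, from RefSeq GRCm38.p6. Capitals mark the bases inside the SOX2 region: 137 in Gm51910 (chr11:81135080-81135379), 24 in 5530401A14Rik (chr11:81860427-81860726) and 159 in Npas3 (chr12:53248182-53248481, with a peak of 1 library).
Gm51910: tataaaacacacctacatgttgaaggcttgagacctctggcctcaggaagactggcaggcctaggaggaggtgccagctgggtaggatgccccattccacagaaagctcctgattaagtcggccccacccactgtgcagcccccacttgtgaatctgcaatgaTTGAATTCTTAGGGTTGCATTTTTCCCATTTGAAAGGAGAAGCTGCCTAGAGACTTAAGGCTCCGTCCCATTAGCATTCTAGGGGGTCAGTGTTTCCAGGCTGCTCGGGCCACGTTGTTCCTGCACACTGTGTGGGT
5530401A14Rik: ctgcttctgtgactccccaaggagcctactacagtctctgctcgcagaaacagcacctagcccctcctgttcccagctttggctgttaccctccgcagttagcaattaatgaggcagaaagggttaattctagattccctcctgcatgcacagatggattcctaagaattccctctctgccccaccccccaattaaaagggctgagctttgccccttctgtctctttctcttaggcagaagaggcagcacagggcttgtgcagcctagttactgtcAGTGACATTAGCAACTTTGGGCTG
Npas3: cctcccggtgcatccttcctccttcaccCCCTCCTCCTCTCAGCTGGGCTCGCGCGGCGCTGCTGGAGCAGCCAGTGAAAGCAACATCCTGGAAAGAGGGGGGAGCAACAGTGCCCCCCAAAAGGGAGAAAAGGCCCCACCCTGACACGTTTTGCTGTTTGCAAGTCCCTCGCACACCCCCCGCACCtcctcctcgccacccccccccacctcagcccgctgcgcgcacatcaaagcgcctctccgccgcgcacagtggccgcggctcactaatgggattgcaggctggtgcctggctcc

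SOX proteins bind short sequences such as ACAAAG and ACAATG, and both were searched on both strands. None of the 3 printed windows held either. Of the 10 own start windows, 1 did (10.0%), at a start of Ntm, against 28.6% of all 32851 windows, where ACAAAG was found in 18.7% and ACAATG in 12.6%. The own windows had a median GC content of 60.8%, against 52.7% for all, and its part in the lower share was not tested. A match here is a run of letters and not a measured site.

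Genes that work with each of the 6 were covered by lists, in which a gene counted when its window held a reproducible region. The share of all protein-coding genes was 46.6%, and long genes have more room for a region than short ones. Among the other IgLON genes, 3 of 4 had one: Lsamp (10 regions, the strongest at 27.0 ± 0.907 normalized tags), Opcml (3, 14.3 ± 4.90) and Negr1 (3, 9.29 ± 1.85), while Iglon5 had none. Among the other acid-sensing channel genes, all 4 had one, each outside the gene's own span: Asic1 (4 regions, 9.75 ± 2.03), Asic3 (1, 11.4 ± 2.34), Asic4 (1, 9.46) and Asic5 (1, 5.00). The strongest Asic2 region had 29.9.

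In the Reelin list, 12 of 15 other genes had a reproducible region, but Reln, the ligand itself, had none, nor had Yes1 and Crk. Both receptors had one, Vldlr at 8.86 and Lrp8 at 8.28 normalized tags. The strongest were at Ndel1 (20.4 ± 0.961) and Pafah1b1 (16.3 ± 3.27), whose proteins act with dynein in nuclear movement, and at Rap1a (14.6 ± 3.63) and the kinase gene Fyn (14.4 ± 2.77). Src, Crkl, Rapgef1, Nde1, Cul5 and Socs7 completed the 12. The Dab1 region of 17.2 was exceeded in this list by that of Ndel1.

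In the bHLH-PAS list, 7 of 14 other matched genes had one, near the share of all genes. Npas4, a factor induced by neuronal activity, led with 15.8 ± 2.56 normalized tags, followed by Hif3a (11.8), Arnt2 (11.2), which encodes a partner of these factors, and Arntl (6 regions). Clock, Epas1 and Npas2 were the others. Npas1, the closest relative of Npas3, had none, and Arnt, Sim1, Sim2, Ahr, Ahrr and Hif1a had none either.

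Partners of AUTS2 in its Polycomb complex and of GSE1 in its deacetylase complex each had a reproducible region at 9 of 12 genes. Of the first, Fbrsl1, a relative of Auts2, had the strongest at 27.2 ± 5.50, followed by Fbrs (10.2), Csnk2a2 and Rybp, while Pcgf5, Rnf2 and Csnk2a1 had none. Pcgf3, Ring1, Yaf2, Csnk2b and Ep300 were the others. Of the second, Gtf2i had 17.1 ± 5.77, Zmym3 9.47 and Phf21a 8.73, while Hdac1, Rcor3 and Zmym2 had none. Kdm1a, which encodes LSD1, Hdac2, Rcor1, Rcor2 and Hmg20b were among the others. None of the genes in either list held more than 3 regions, against 11 at Auts2 and 15 at Gse1, but their median spans were 49.4 and 45.9 kb.

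A list of 24 other long neural genes gives the nearer comparison. Of these, 21 had a reproducible region, with a median of 3 regions and 0.209 per 100 kb, against 11.5 and 1.11 for the 6 genes. Lsamp was highest with 10, and Pcdh9, which encodes a protocadherin, had 8. Strong regions were found at Lsamp (27.8, 27.1 and 26.0 normalized tags in IP libraries 1, 2 and 3), the synaptic scaffold gene Magi2 (26.7, 27.7 and 25.8) and Nrxn3 (23.1, 19.1 and 17.7). Regions were also found at Cntnap2, Cntn5, Csmd1, Dlg2, Opcml, Ptprd, Lrp1b, Nrg1, Rbfox1, Macrod2, Cdh13, Ctnna2, Kcnip4, Fgf14 and Tenm2, while Nrg3, Erbb4 and Il1rapl1 had none. The leading regions of Lsamp and Magi2 were as strong as those of Ntm and Npas3 within the spread between libraries. In Lsamp 10 regions were spread over 2197 kb, or 0.435 per 100 kb, below all 6 genes.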

How the data were processed

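SOX2 ChIP-seq peaks of 3 IP libraries from mouse cortex were used. The input was available only as input tags and folds listed beside each IP peak. Bowtie 1.0.0, HOMER 4.7 and mm10 are named, per the submitters' processing notes. Peaks were called by the authors in single libraries against the input with HOMER findPeaks in factor mode, per the file headers. The headers require at least 4-fold over the input and over the surrounding 10 kb, a p-value no higher than 1.00e-04 and an FDR of 0.001. The headers also give an FDR tag threshold of 14, 13 and 16 tags in IP libraries 1, 2 and 3. Some deposited peak values fall below it, as at chr12:53647348-53647584, with 3.69 and 3.34 normalized tags in IP libraries 2 and 3. The signal is the authors' normalized tag value per peak, scaled to 10000000 tags per the file headers, and the input tags were deposited with a floor of 0.5. The fold over input is the authors' deposited ratio, and the focus ratio was deposited as a fraction. All of them belong to single peaks and served for description, ranking and filtering.

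Peaks overlapping by 1 bp or more were joined and counted per gene with Python 3.11.15 and pandas 2.3.3, using gene spans from RefSeq and windows of 50 kb on each side. Joining ran in chains, so the libraries' strongest peaks in a region need not share a base. They shared none in 4 of the 73 reproducible regions at the 6 genes and in 280 of all 9333. Of the 4, 2 were in Ntm, 1 in Npas3 and 1 in Gse1. A region can count for several genes. The merging was tested on simulated peaks. A region's value is the mean ± SD over 3 libraries. Regions were not read as sequence, since no genome was used here, so exons and introns are not given. The 6 genes and all lists were chosen with earlier results of these data known, so nothing was tested and no p-value is given. Genes were named by rule: the 6 members with their 3 strongest regions and the region nearest a start; up to 10 other long genes with at least as many regions as the lowest member; the long gene closest in span; and list members with a region, with values for up to 4 per list, the strongest. Genes without a region, genes with 9, the receptors of Reelin, and close pairs were named after their values were seen. Lists covered IgLON genes, acid-sensing channels, Reelin signalling, bHLH-PAS factors (15 of 16 symbols matched, Bmal1 as Arntl), partners of AUTS2 and GSE1, other long neural genes and 5 cell type lists, the last given as counts. Some list members are not reported here by name.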

Additional observations from a re-analysis of the deposited data

How the results depend on the processing

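The 6 genes held 73 reproducible regions, with a median of 1.11 per 100 kb, against 0.225 over all 556 long genes, the 6 included. With only peaks of at least 8-fold over the input these were 40, 0.576 and 0.142. When each library's weaker 0.5 of peaks was dropped they were 47, 0.706 and 0.143. With peaks required to overlap by 0.5 of both lengths they were 66, 0.997 and 0.203. With regions of at least 2 libraries the long gene median was 0.394, beside 1.59 for the 6 genes and 103 regions. Leaving out 1 library at a time gave 77 to 89 regions, a median of 1.20 to 1.26 for the 6 genes, and 0.244 to 0.283 for long genes. The median of the 6 was above that of the long genes under each of these settings, which the choice of genes makes likely.

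Among 60 counts of single genes 53 stayed within 1.5 times of the reported count, and among 76 ranks 51 did so. The 76 include ranks among genes of at least 200, 500 or 800 kb (989, 226 and 98 genes in place of 556). In those, counts and densities stayed as reported and only the set of ranked genes changed. Over settings that keep the 300 kb limit, ranks by density ran over 2 to 4 for Gse1, 12 to 41 for Ntm, 18 to 194 for Npas3, 30 to 62 for Auts2, 55 to 96 for Asic2 and 51 to 96 for Dab1. The cause of the moves within the 300 kb limit was not tested. Gse1 has no rank among genes of 500 or 800 kb because its span is shorter. No paired analysis was possible because the only other group is 1 input, and the counts come from no test. A region near the header threshold of 13 to 16 tags can be missed in 1 library by counting error alone. Regions with peaks in 1 or 2 libraries are therefore not shown to be absent from the others.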
